A study of Mus musculus with 6 samples.

Results

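Basement membrane components and integrins were followed in whole mammary glands of wild-type and caveolin-3 knockout mice. The group held 39 of the 18161 genes measured: 10 laminin chains, 6 collagen IV chains, 7 other basement membrane or linking proteins (nidogens, perlecan, agrin and the collagens Col15a1, Col17a1 and Col18a1) and 16 integrin subunits. Members were chosen by name and function, with earlier results of these data known, and all 39 were measured. Each is shown by 1 probe set, a group of short oligonucleotides read as 1 value. That set has the highest mean over the 6 arrays among those annotated to the gene alone. The members had 88 such probe sets in all, and 27 of them had more than 1.

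The 2 groups were 3 wild-type (WT) and 3 Cav-3KO glands of virgin females aged 4 months, all of the FVB/N background and untreated. Caveolin-3 forms caveolae, small pits of the cell surface, in muscle cells. Neither the knockout allele nor the number of mice behind the glands is stated in the labels, so p-values measure the spread between these 6 samples only. Values are log2 array signals, and a level of one gene cannot be set against that of another.

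Basement membranes are thin sheets of matrix beneath epithelia and around blood vessels, fat cells, muscle fibres and nerves. Laminins, each made of an alpha, a beta and a gamma chain, and networks of collagen IV form the sheet, and nidogens, perlecan (Hspg2) and agrin link them. Integrins are receptors made of an alpha and a beta subunit that bind cells to it. In the mammary gland the myoepithelial (basal) cells lie on this sheet, partly through hemidesmosomes, in which the integrin pair of Itga6 and Itgb4 and the transmembrane collagen Col17a1 hold a laminin that contains the Lama3 and Lamb3 chains.

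Lama1, Col4a5, Itgb8, Lamb3 and Itga6 rose most in the knockout, by 2.37-fold to 3.70-fold, and 27 of the 39 members, among them Lamb1, Lamc1, Nid1, Hspg2 and Itgb1, did not pass the test. Of the 39 members 11 were higher (28.2%) and 1 was lower (2.56%) at an adjusted p under 0.05 by limma, against 7.66% of all genes higher, 8.51% lower and 16.2% called in either direction. The median log2 difference, knockout minus wild type, was 0.19 over the members and −0.01 over all genes. Groups did not overlap for 15 members (38.5%), which is close to the 38.3% of all genes. Of these 13 were higher and 2 lower in knockout, beside 18.5% and 19.9% of all genes. The share called was 30.0% of laminin chains, 3 of the 6 collagen IV chains, 42.9% of the other matrix members and 18.8% of integrins, the last near the 16.2% of all genes. At an unadjusted limma p under 0.05 the lower members numbered 0 laminins, 1 collagen IV chain (Col4a4), 0 other matrix members and 1 integrin (Itga7). The number of members higher was 7 without knockout 3 and between 8 and 13 without any other single array. Without wild-type 2, 2 members were lower. Calls over all genes moved too: 6.79% were called in either direction without knockout 3, and 8.08% to 17.5% without any other single array.

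**Figure D1:**
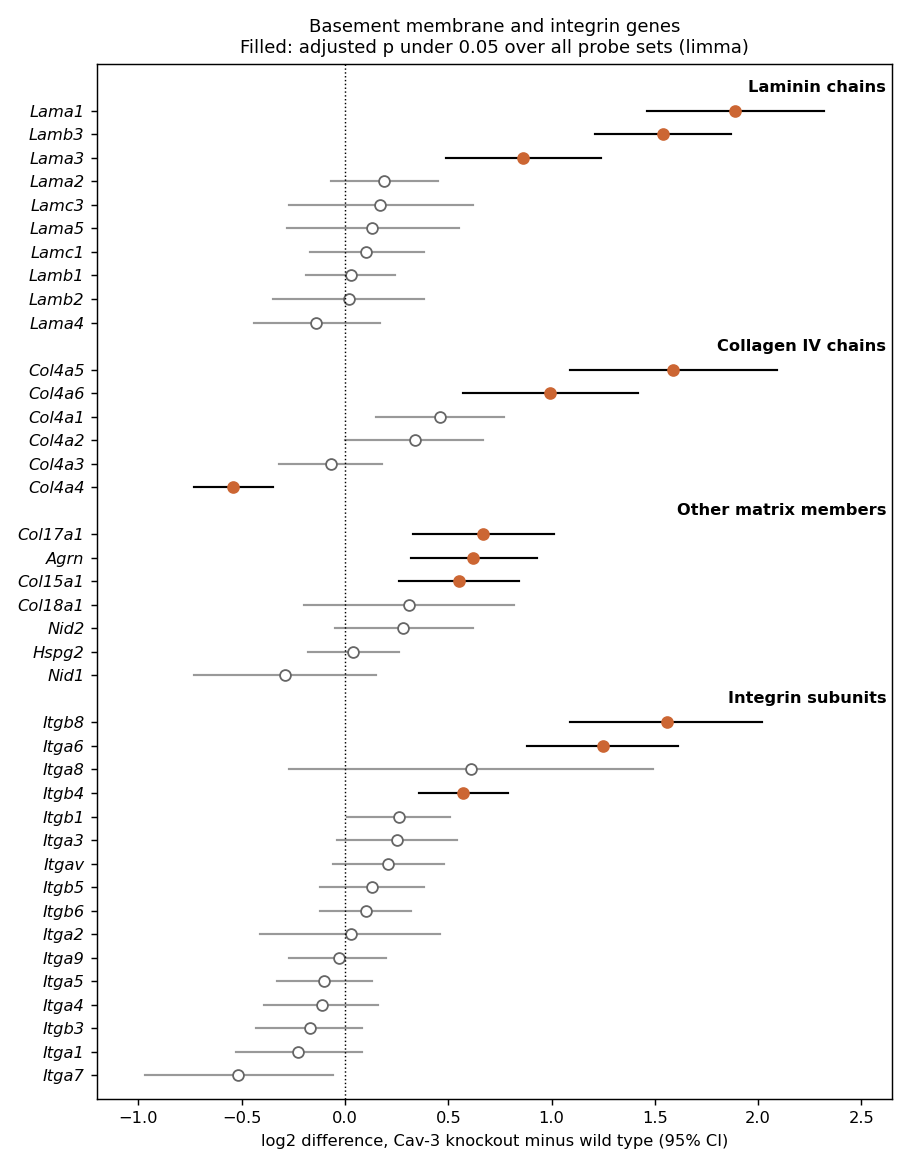
Log2 difference of each of the 39 members, knockout minus wild type, with its 95% confidence interval from the limma fit, by class. Filled points passed the threshold: 11 lie to the right of 0 and Col4a4 lies to the left, with Lama1 farthest right at 1.89.

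Arrays were alike in scale, with medians of 5.77 to 5.80, and correlated at 0.990 to 0.995 within a genotype and 0.977 to 0.987 between genotypes. The gland's own markers were present, with Krt8 of luminal cells at 11.77 ± 0.39 (SD, n = 3) and Adipoq of fat cells at 13.12 ± 0.12 in wild type. The Cav3 probe set read 4.85 ± 0.15 in wild type and 4.77 ± 0.06 in knockout (difference −0.08, adjusted p = 0.679), so it does not check the labels. Skeletal muscle markers varied most between arrays: 10 of them averaged 8.27, 9.22 and 5.76 across the wild-type arrays, against 5.17, 6.80 and 7.39 across the knockout arrays, in replicate order, and none passed. As a mark of the level without transcript, 10 probe sets of Y-linked genes, which female mice lack, averaged 2.04 to 3.25. These Y-linked genes were picked after their values were seen, so the level is a rough guide.

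Laminins were higher in 3 of 10 chains and lower in 0, and the chains that moved were 2 alpha chains and 1 beta chain of epithelial laminins. Lama1, the alpha chain of the first laminin of the embryo, read 7.43, 6.81 and 7.04 in wild type and 8.69, 9.04 and 9.20 in knockout (replicates 1 to 3, the order used for every gene). Every knockout array lay above every wild-type array, and the rise of 1.89 ± 0.19 (SE) was 3.70-fold (adjusted p = 0.00165). Lamb3, the beta chain found in hemidesmosome laminin, read 7.51, 7.14 and 7.36 in wild type and 9.07, 8.63 and 8.93 in knockout. It rose by 1.54 ± 0.14, 2.90-fold (adjusted p = 0.00135), again with no overlap. Its partner Lama3 read 7.60, 7.35 and 7.09 in wild type and 8.46, 8.01 and 8.16 in knockout, a rise of 0.86 ± 0.16 or 1.82-fold (adjusted p = 0.0149). Lama3 has another probe set, averaging 4.14, that showed no such change (difference 0.03, adjusted p = 0.896), and without knockout 3 the call was lost (adjusted p = 0.0533).

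The other 7 laminin chains had differences of −0.14 to 0.19. They include Lamb1, Lamc1 and Lama4, chains shared by vessels and many other basement membranes. The largest of these differences was that of Lama2, the alpha chain of muscle and nerve, which read 10.03, 9.74 and 9.75 in wild type and 10.09, 9.92 and 10.07 in knockout (difference 0.19, 95% interval −0.07 to 0.45, adjusted p = 0.319). Lamc1, the gamma chain that pairs with Lama1, differed by 0.10 (−0.17 to 0.38), and Lamb1 by 0.03 (−0.19 to 0.24). Lama4, of vessels and fat cells, differed by −0.14 (−0.44 to 0.17) and Lama5, of mature epithelium and vessels, by 0.13 (−0.28 to 0.55). A dimmer Lama4 probe set differed by −0.39, without overlap of the groups (adjusted p = 0.105). Lamb2 and Lamc3 differed by 0.02 and 0.17. The intervals of Lamb1 and Lamc1 leave out changes as large as that of Lama1.

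Collagen IV genes lie in pairs of neighbours read in opposite directions, and the pair on chromosome X, Col4a5 and Col4a6, rose. Their chains form a network found in the basement membranes of some epithelia and of smooth muscle, while the chains of Col4a1 and Col4a2, the pair on chromosome 8, form the network of nearly all basement membranes. The start regions of both pairs are shown because the genes of a pair start close together. Each run covers 250 bases before to 50 after the gene start, from RefSeq, build GRCm38.p6, 5′ to 3′ on the gene's own strand. Capitals mark exact matches on either strand to 3 common promoter motifs. The GC box is GGGCGG. The second is the CCAAT box. The TATA box was searched as TATAAA.
Col4a5 (chrX:141475169-141475468, plus strand): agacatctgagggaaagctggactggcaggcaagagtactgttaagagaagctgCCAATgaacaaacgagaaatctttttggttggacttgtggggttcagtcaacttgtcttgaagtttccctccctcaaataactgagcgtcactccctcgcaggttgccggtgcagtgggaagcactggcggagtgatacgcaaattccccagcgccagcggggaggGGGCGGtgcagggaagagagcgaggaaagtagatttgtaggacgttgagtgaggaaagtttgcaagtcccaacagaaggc
Col4a6 (chrX:141474027-141474326, minus strand): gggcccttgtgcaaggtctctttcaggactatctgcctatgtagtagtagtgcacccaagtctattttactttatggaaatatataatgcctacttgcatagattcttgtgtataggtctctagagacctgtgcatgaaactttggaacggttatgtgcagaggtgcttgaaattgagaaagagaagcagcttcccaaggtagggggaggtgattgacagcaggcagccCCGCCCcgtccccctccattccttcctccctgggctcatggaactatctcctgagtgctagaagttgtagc
Col4a1 (chr8:11312777-11313076, minus strand): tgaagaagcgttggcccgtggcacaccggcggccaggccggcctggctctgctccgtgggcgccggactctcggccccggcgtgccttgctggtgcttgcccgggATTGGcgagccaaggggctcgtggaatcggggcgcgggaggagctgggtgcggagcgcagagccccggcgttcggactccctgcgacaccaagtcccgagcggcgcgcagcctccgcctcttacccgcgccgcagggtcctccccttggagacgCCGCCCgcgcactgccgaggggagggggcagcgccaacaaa
Col4a2 (chr8:11312555-11312854, plus strand): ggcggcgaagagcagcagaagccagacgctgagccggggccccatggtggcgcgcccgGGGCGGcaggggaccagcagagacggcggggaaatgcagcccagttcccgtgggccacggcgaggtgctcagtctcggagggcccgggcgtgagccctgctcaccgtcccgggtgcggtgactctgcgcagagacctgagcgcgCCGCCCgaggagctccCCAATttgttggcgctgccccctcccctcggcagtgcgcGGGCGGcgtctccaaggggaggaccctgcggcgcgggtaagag
The windows of Col4a5 and Col4a6 are 842 bases apart, and those of Col4a1 and Col4a2 share 78 bases, so that the ends of those runs are each other's complement. GC boxes are in all 4 windows, 1 in Col4a5, Col4a6 and Col4a1 and 3 in Col4a2, and a GC box is in 35.7% of the 32851 windows of all genes. The Col4a1 box lies in the shared bases and is the same site as the last Col4a2 box. A CCAAT box is in those of Col4a5, Col4a1 and Col4a2, and in 37.4% of all windows. The letters G and C make up 52.7% and 48.3% of the Col4a5 and Col4a6 windows and 74.0% and 73.7% of the Col4a1 and Col4a2 windows. A match is a description of these letters only.

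Col4a5 read 8.0, 7.58 and 7.53 in wild type and 9.64, 9.40 and 8.84 in knockout, with knockout 3 the lowest of its group and still above all wild-type arrays. The rise was 1.59 ± 0.21 (SE), 3.01-fold (adjusted p = 0.00507). A further Col4a5 probe set rose by 1.34 ± 0.17 (adjusted p = 0.00365). Col4a6 read 6.47, 5.96 and 6.43 in wild type and 7.56, 7.28 and 7.0 in knockout, a rise of 0.99 ± 0.18 or 1.99-fold (adjusted p = 0.0139), and its other probe set rose by 1.02 ± 0.16 (adjusted p = 0.00779). In both genes knockout 1 was the highest and knockout 3 the lowest array of its group.

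Col4a1, the collagen IV chain with the largest difference among those that did not pass, read 12.08, 11.77 and 11.97 in wild type and 12.41, 12.18 and 12.61 in knockout. The groups did not overlap, and the difference was 0.46 (95% interval 0.15 to 0.77, adjusted p = 0.0654). Its neighbour Col4a2 read 10.96, 10.78 and 11.08 in wild type and 11.35, 11.00 and 11.49 in knockout, where knockout 2 lay within the wild-type range (difference 0.34, interval 0.00 to 0.67, adjusted p = 0.176). Without knockout 2 both passed, at adjusted p = 0.0283 and 0.0424, and 4 collagen IV genes were then higher. Col4a1 also passed when dim probe sets were left out (adjusted p = 0.0492). Of all genes 17.5% were called without knockout 2 and 26.3% without dim probe sets, beside 16.2% with neither left out. A second Col4a1 probe set differed by 0.16 (adjusted p = 0.577).

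Col4a4 was the member called lower. With Col4a3, its neighbour on chromosome 1, it is best known from the basement membrane of the kidney. Col4a4 read 5.63, 5.68 and 5.59 in wild type and 5.06, 5.08 and 5.15 in knockout, a fall of 1.45-fold (difference −0.54 ± 0.08, adjusted p = 0.00735). Its other probe sets did not show that fall: one, averaging 5.06, differed by −0.16 (adjusted p = 0.495), and one at the level of the Y-linked genes differed by 0.05. Averaged over its probe sets the gene did not pass (difference −0.22, adjusted p = 0.0988). Col4a3 averaged 3.42 in wild type and 3.35 in knockout, just above the Y-linked range, so a change there may not be readable.

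**Figure D2:**
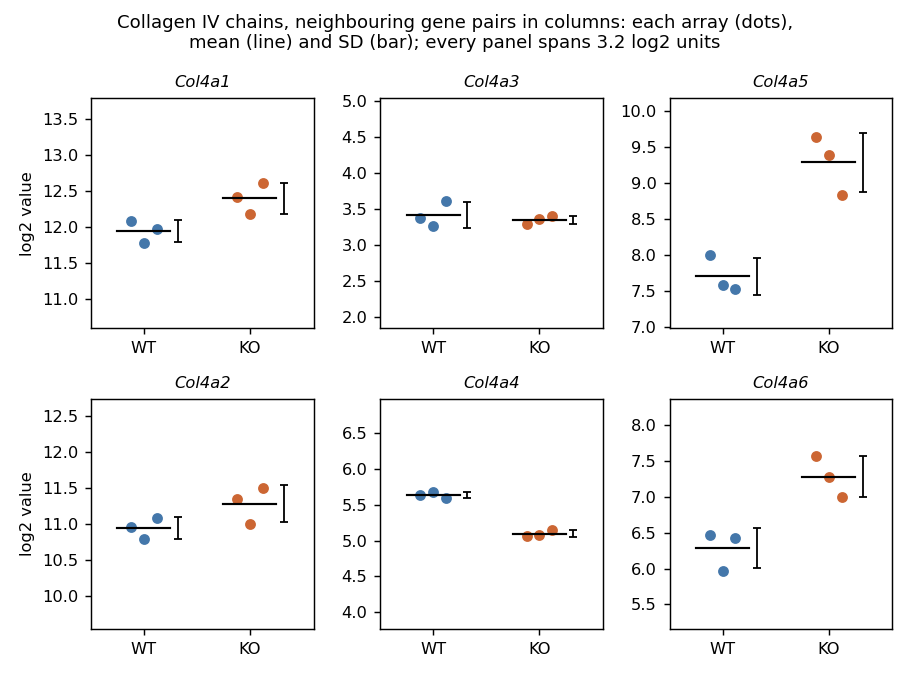
Log2 values of the 6 collagen IV genes on each array, with neighbouring genes in the same column; dots are arrays, the line is the mean and the bar the SD (n = 3). Col4a5 and Col4a6 lie higher in all knockout arrays, Col4a1 and Col4a2 shift by 0.46 and 0.34, and Col4a3 averages 3.42 and 3.35.

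Among the other matrix members 3 of 7 were higher and 0 lower: Col17a1, Agrn and Col15a1. The start regions of Col17a1 and Lamb3, whose proteins meet in hemidesmosomes, are given with the same motifs in capitals. The first of the Lamb3 windows held none of them, and the Col17a1 window held 2 TATA boxes and 1 CCAAT box, where a TATA box is in 13.6% of all windows.
Col17a1 (chr19:47691993-47692292, minus strand): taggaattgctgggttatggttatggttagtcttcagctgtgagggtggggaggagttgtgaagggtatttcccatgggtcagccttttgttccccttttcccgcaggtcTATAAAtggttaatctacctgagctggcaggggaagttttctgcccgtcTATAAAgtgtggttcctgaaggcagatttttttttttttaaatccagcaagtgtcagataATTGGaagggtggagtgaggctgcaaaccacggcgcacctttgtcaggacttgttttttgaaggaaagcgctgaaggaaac
Lamb3 (chr1:193301744-193302043, plus strand): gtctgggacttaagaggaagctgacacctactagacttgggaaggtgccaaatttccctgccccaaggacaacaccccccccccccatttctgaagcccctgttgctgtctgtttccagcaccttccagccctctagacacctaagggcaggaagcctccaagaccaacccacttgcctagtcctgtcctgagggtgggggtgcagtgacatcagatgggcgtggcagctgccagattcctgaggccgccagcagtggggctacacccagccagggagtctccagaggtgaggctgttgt
The motif TTCNNNGAA, a core bound by STAT factors and in 8.3% of all windows, was in 0 of the 10 windows available for the called members and in 1 of the 33 windows of all members, that of Lamb2. The absence of these letters from such windows says nothing of the factors.

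Col17a1 read 5.79, 5.49 and 5.35 in wild type and 6.44, 6.08 and 6.12 in knockout, without overlap, and rose by 0.67 ± 0.15 (SE), 1.59-fold (adjusted p = 0.0256). Agrn, a heparan sulphate proteoglycan that binds laminin, read 9.22, 8.90 and 8.75 in wild type and 9.59, 9.69 and 9.46 in knockout, a rise of 0.62 ± 0.13 or 1.54-fold (adjusted p = 0.0232). Col15a1, a collagen at the outer face of vessel and muscle basement membranes, read 8.51, 8.41 and 8.49 in wild type and 8.96, 8.82 and 9.28 in knockout, a rise of 0.55 ± 0.13 or 1.46-fold (adjusted p = 0.0298). The groups of these 3 genes did not overlap. Their calls were the weakest among the members: with wild-type 2, wild-type 3, knockout 1 or knockout 3 left out, none of the 3 passed, with adjusted p of 0.0551 to 0.0910, and without wild-type 1 only Col15a1 failed (0.0733). With the skeletal muscle mean as a covariate Col15a1 and Col17a1 did not pass (adjusted p = 0.0636 and 0.0645), although their differences of 0.57 and 0.67 were as large as without it; of all genes 12.5% were called with this covariate. A second, dim Agrn probe set differed by −0.15 (adjusted p = 0.428), and averaged over its probe sets Agrn did not pass (difference 0.24, adjusted p = 0.106).

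Col18a1, the source of endostatin, had the largest difference among those of these 7 members that did not pass. It read 10.29, 9.61 and 10.02 in wild type and 10.67, 9.92 and 10.27 in knockout, and replicate 2 was the lowest array of each group (difference 0.31, 95% interval −0.20 to 0.82, adjusted p = 0.422). Hspg2, perlecan, differed by 0.04 (−0.18 to 0.26) and Nid2 by 0.28 (−0.05 to 0.62). Nid1, the main linker of laminin and collagen IV, read 10.31, 10.33 and 10.48 in wild type and 10.49, 9.66 and 10.11 in knockout (difference −0.29, adjusted p = 0.386). The knockout arrays of Nid1 lay on both sides of the wild-type range: knockout 1 just above it and the others below it. The Nid1 difference was −0.49 without knockout 1 and −0.08 without knockout 2, and it passed in neither. A dimmer Nid1 probe set fell by 0.60 ± 0.13 (adjusted p = 0.0218), and another differed by −0.27 (adjusted p = 0.399).

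**Figure D3:**
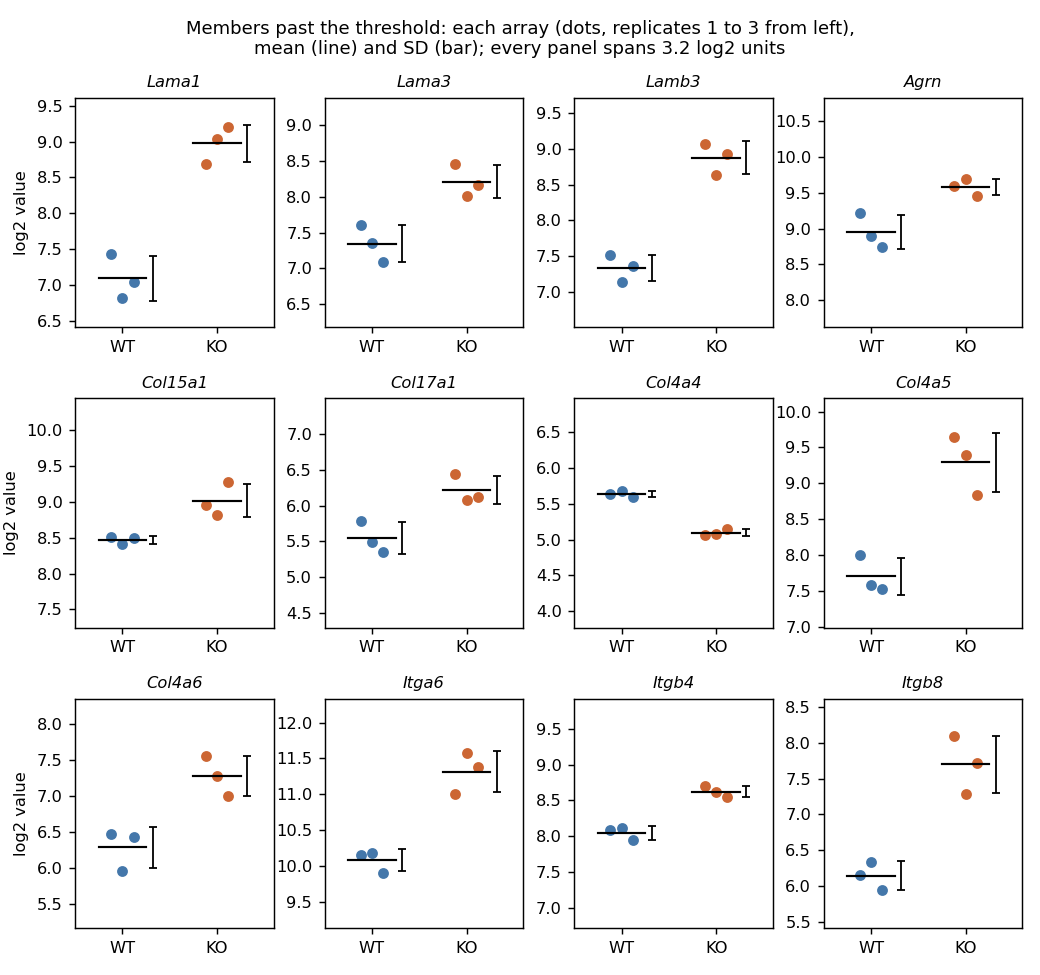
Log2 values on each array of the 12 members past the threshold, with the group mean (line) and SD (bar, n = 3). In 11 panels all knockout arrays lie above all wild-type arrays, and for Col4a4 they lie below.

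Integrins were higher in 3 of 16 subunits and lower in 0: Itgb8, Itga6 and Itgb4. Itgb8, which pairs with Itgav and activates latent TGF-beta, read 6.15, 6.34 and 5.94 in wild type and 8.09, 7.29 and 7.71 in knockout, and rose by 1.56 ± 0.20 (SE), 2.94-fold (adjusted p = 0.00430). Itga6, the laminin-binding alpha subunit of basal cells, read 10.15, 10.18 and 9.90 in wild type and 11.00, 11.57 and 11.38 in knockout. It rose by 1.25 ± 0.16, 2.37-fold (adjusted p = 0.00388), and its other probe set by 1.38 ± 0.19 (adjusted p = 0.00518). Itgb4, its hemidesmosome partner, read 8.08, 8.12 and 7.94 in wild type and 8.70, 8.61 and 8.55 in knockout, a tight shift of 0.57 ± 0.09 or 1.49-fold (adjusted p = 0.00908). None of the 3 overlapped between genotypes, and each kept its call when any 1 array was left out.

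The largest integrin difference that did not pass was that of Itga8, a subunit of smooth muscle and mesenchymal cells that binds nephronectin. It read 8.57, 8.49 and 7.92 in wild type and 8.69, 9.86 and 8.26 in knockout, where knockout 2 stood above the other 5 arrays and the groups overlapped (difference 0.61, 95% interval −0.27 to 1.49, adjusted p = 0.355). Itgb1, the beta subunit of most matrix receptors, read 8.99, 8.95 and 9.07 in wild type and 9.13, 9.45 and 9.21 in knockout (difference 0.26, interval 0.01 to 0.51, adjusted p = 0.165). Its groups did not overlap, yet the shift was small. Itga7, the laminin receptor of muscle, read 6.91, 6.54 and 7.42 in wild type and 6.40, 6.48 and 6.44 in knockout (difference −0.52, adjusted p = 0.134). Itga7 passed without wild-type 2 (−0.72, adjusted p = 0.0433) and with the muscle covariate (−0.73, adjusted p = 0.0399). Muscle markers had a lower mean in knockout, 6.45 against 7.75. By array the muscle means were 8.27, 9.22 and 5.76 in wild type and 5.17, 6.80 and 7.39 in knockout. Any part of muscle content in the Itga7 difference was not tested.

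Collagen receptors did not pass: Itga2 differed by 0.03 and Itga1 by −0.23, and a second Itga1 probe set by −0.32 (groups not overlapping, adjusted p = 0.0528). Neither did the laminin receptor Itga3, at 0.25 (interval −0.04 to 0.54), nor the subunits of fibronectin and vitronectin receptors, with Itga5 at −0.10, Itgav at 0.21, Itgb3 at −0.17, Itgb5 at 0.13 and Itgb6 at 0.10. Itgb6 averaged 3.80 and 3.90 in the 2 genotypes, near the Y-linked range. Itga9 differed by −0.03. Itga4, which leucocytes use to enter tissue, differed by −0.11 on its brightest probe set (adjusted p = 0.612), while the next brightest 2 of its 5 fell by 0.42 ± 0.09 and 0.64 ± 0.11 (adjusted p = 0.0264 and 0.0112). Probe sets of Itga4 thus disagree, and the call for the gene depends on which is read. Over the 27 members that did not pass, differences ran from −0.52 to 0.61, and 4 had an unadjusted p under 0.05.

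For 9 pairs of members that are partners or relatives the log2 ratio was taken within each array. The pairs were chosen with earlier results known, and a two-sided exact permutation test of 3 against 3 arrays cannot go below p = 0.1, so the shifts of the mean ratio, knockout minus wild type, are a description. Itga6 over Itgb1 shifted by 0.99 and Itga6 over Itgb4 by 0.67. Itgb8 over Itgav shifted by 1.35. Lama1 over Lamc1 shifted by 1.78 and Lamb3 over Lamb1 by 1.51, while Lama3 over Lamb3 shifted by −0.68. Col4a5 over its neighbour Col4a6 shifted by 0.60, Col4a5 over Col4a1 by 1.13 and Col4a6 over Col4a2 by 0.66.

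Genes around the basement membrane and the integrins moved both ways. Of 22 linker and collagen-processing genes 3 were higher and 1 lower (18.2% called, beside 16.2% of all genes), with a median difference of 0.14. Npnt, nephronectin, the ligand of the integrin with Itga8, read 6.48, 6.19 and 6.31 in wild type and 7.37, 7.40 and 7.76 in knockout and rose by 1.18 ± 0.13 (adjusted p = 0.00270). Tinagl1, a secreted matrix protein related to a tubular basement membrane antigen, rose by 0.67 ± 0.15 (adjusted p = 0.0247), and Vwa1, a partner of perlecan, by 0.48 ± 0.10 (adjusted p = 0.0232). Ntn4, a netrin that binds laminin gamma chains, read 8.51, 8.59 and 8.40 in wild type and 8.14, 7.84 and 7.60 in knockout and fell by 0.64 ± 0.14 (adjusted p = 0.0263). Without wild-type 1, 2 or 3 or knockout 3, 1 gene was higher and 0 lower. Of 14 other matrix receptors and tetraspanins 1 was higher and 2 lower (21.4% called), with a median of 0.09. Cd9, a tetraspanin that joins integrins, rose by 0.94 ± 0.11 (adjusted p = 0.00265), while Cspg4, a proteoglycan of pericytes, and Ddr2, a receptor for fibrillar collagen, fell by 0.98 ± 0.15 and 0.82 ± 0.10 (adjusted p = 0.00846 and 0.00321). Higher genes numbered 2 without wild-type 1, knockout 1 or knockout 2.

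The integrin adhesion complex, which ties integrins to actin, had 6 of 22 genes higher (27.3%) and 5 lower (22.7%), with a median of 0.07. Both shares were above those of all genes, 7.66% higher and 8.51% lower. Tns3, a tensin that binds beta subunit tails, read 10.29, 10.25 and 10.02 in wild type and 11.37, 11.38 and 11.21 in knockout and rose by 1.14 ± 0.11 (adjusted p = 0.00135). Its relative Tns1 read 11.28, 11.76 and 11.39 in wild type and 10.71, 10.61 and 10.45 in knockout and fell by 0.88 ± 0.14 (adjusted p = 0.00853). The kinase gene Src rose by 0.99 ± 0.14 (adjusted p = 0.00611), and Fermt3, the kindlin of blood cells, fell by 0.52 ± 0.08 (adjusted p = 0.00832). Plec and Dst, which anchor keratin at hemidesmosomes and were picked here after their values were seen, differed by −0.02 and −0.22 (adjusted p = 0.925 and 0.200). Without wild-type 1 or knockout 3, 3 genes were higher, and with any of wild-type 2, wild-type 3, knockout 2 and knockout 3 left out, 3 were lower. With the muscle covariate 3 were higher and 3 lower. Of 8 leucocyte and other integrins 3 were lower (37.5%) and 1 higher (12.5%) and 4 did not pass, with a median of −0.34. The leucocyte subunits Itgb2, Itgal and Itgb7 fell by 0.39 ± 0.09, 0.43 ± 0.10 and 0.39 ± 0.11 (adjusted p = 0.0291, 0.0317 and 0.0487), and the collagen receptor Itga10 rose by 0.83 ± 0.16 (adjusted p = 0.0155). Leaving out any of wild-type 1, wild-type 3, knockout 1 and knockout 3 left 0 lower genes. Lower genes numbered 1 without wild-type 2 or with the muscle covariate, and 2 without knockout 2; without wild-type 3 no gene of the list was higher.

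**Figure D4:**
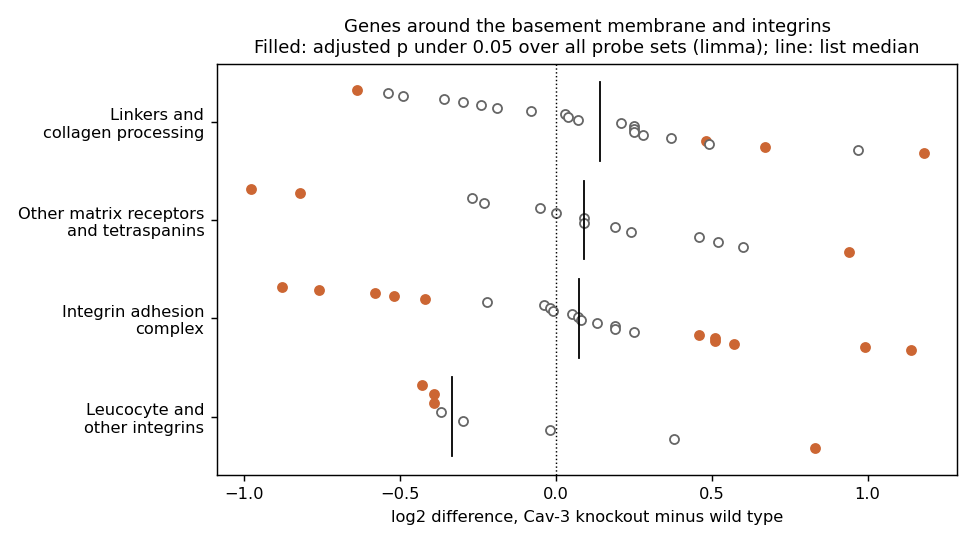
Log2 difference, knockout minus wild type, of each gene in 4 lists around the members; filled points passed the threshold and the vertical line is the list median. The adhesion complex has 6 filled points above 0 and 5 below, and the medians run from −0.34 for leucocyte and other integrins to 0.14 for linkers.

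Markers of the cells that make or touch basement membranes moved beside these genes. Among all genes 7.66% were higher and 8.51% lower, the background for the marker counts here and below. Of 9 basal epithelial markers 8 were higher and 0 lower, and their list mean was 8.78 to 8.93 on wild-type arrays and 9.63 to 9.76 on knockout arrays. Of 10 luminal markers 9 were higher and 0 lower, with means of 9.01 to 9.55 and 10.43 to 10.61. The median rise of the basal markers was 0.75 and of the luminal markers 1.27, with Krt5 at 1.25, Trp63 at 1.39 and Epcam at 1.55. In bulk tissue more cells of a type and more RNA per cell cannot be told apart, and the part of these shifts in the rises of Lama1, Lamb3, Col4a5, Itga6 and the others was not tested. No marker of either list was at the Y-linked level.

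Endothelial markers had means of 8.31 to 8.48 in wild type and 8.19 to 8.48 in knockout, with 1 of 10 higher (Cldn5) and 2 lower (Kdr and Tek). Fibroblast markers ranged over 11.64 to 12.14 and 11.66 to 12.22, with 1 of 8 lower. Markers of pericytes and vascular smooth muscle had means of 8.32 to 8.58 in wild type and 8.10 to 8.24 in knockout, with 3 of 8 lower. Means of white adipocyte markers were 11.65 to 11.88 and 10.91 to 11.29 (5 of 7 lower), and of leucocyte markers 9.26 to 9.39 and 8.96 to 9.07 (2 of 6 lower). Brown adipocyte markers had means of 8.0 to 9.27 and 6.75 to 6.87 (4 of 7 lower). Schwann cell markers had means of 8.66 to 8.78 and 8.64 to 9.08 (1 of 5 higher and 1 lower), and epidermal markers of 5.52 to 5.55 and 5.49 to 5.73 (1 of 6 higher). Beside these, the mean of the 10 laminin members was 8.46 to 8.74 on wild-type and 8.93 to 9.23 on knockout arrays, and that of the 16 integrins 7.42 to 7.48 and 7.63 to 7.74.

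**Figure D5:**
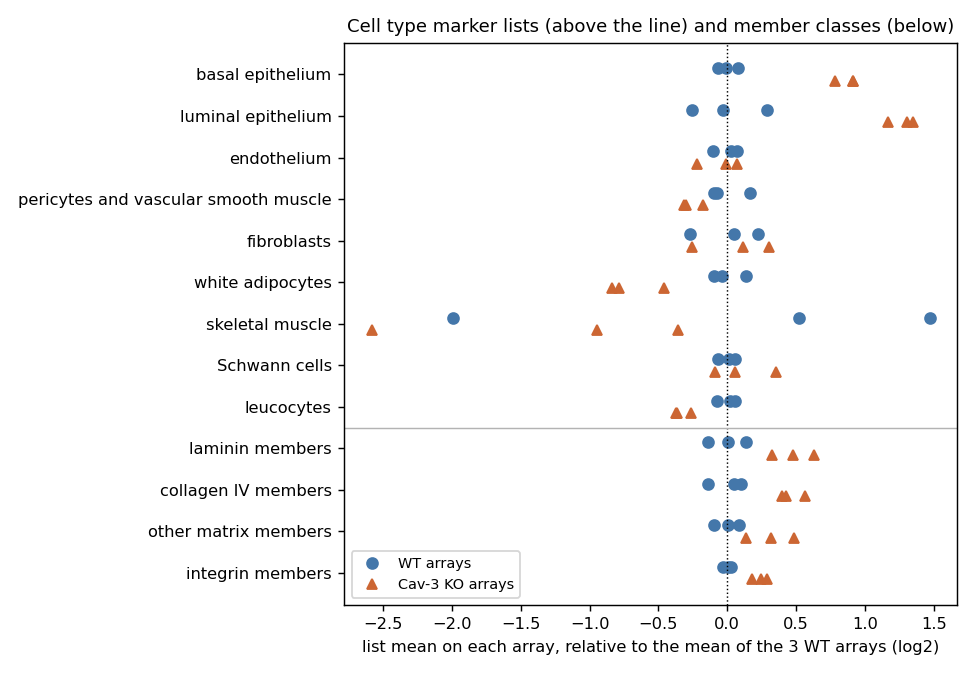
Mean log2 value of marker lists (above the line) and member classes (below) on every array, relative to the mean of the 3 wild-type arrays. Circles are wild type and triangles knockout. The brown adipocyte and epidermal lists, which differ by −1.73 and 0.07, are not drawn. Basal and luminal lists lie 0.86 and 1.27 higher in knockout, the endothelial list differs by −0.05, and the member classes lie 0.24 to 0.48 higher.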

How the data were processed

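Total RNA of whole glands was copied into biotin-labelled cRNA and read on single-channel oligonucleotide arrays, 1 per sample. Per the submitters' processing notes the authors used RMA, of no stated version, to make the deposited log2 values. RMA corrects background, normalizes probes across arrays and gives 1 log2 value per probe set, so a shift of most transcripts one way would be removed and folds of dim sets are compressed. The number of arrays limits the precision.

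Of 45101 probe sets 64 controls were left out. The annotation gave 34945 of the others 1 symbol, which was updated through Entrez identifiers (RefSeq, GRCm38.p6). Knockout and wild type were compared over all 45037 probe sets with limma 3.58.1 in R 4.3.3 (lmFit, eBayes, two-sided, 4 residual degrees of freedom), with Benjamini-Hochberg adjustment over all of them and a threshold of 0.05. The fit was tested on simulated data. Figures were drawn with matplotlib 3.10.9. Members, lists and pairs were chosen with earlier results of these data known, and the Y-linked genes (Eif2s3y, Kdm5d, Uty and Usp9y) after seeing their values. Arrays were given one by one for members past the threshold, the largest other difference of each class and the neighbour Col4a2, and also for Nid1, Itgb1 and Itga7, chosen after their values were seen; related genes were named by smallest p, up to 4 a list. Alternatives were median centring, cyclic loess, leaving out dim probe sets, a trended and robust variance prior, a replicate block, a skeletal muscle covariate, fewer probe sets, averaged probe sets and each array left out. Promoter sequences were found for 28 of the 39 members.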

Additional observations from a re-analysis of the deposited data

How the results depend on the processing

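Over 14 alternatives, 7 of the 12 called members kept their call wherever they had a value (Lama1, Lamb3, Col4a5, Col4a6, Itga6, Itgb4 and Itgb8), no called value changed sign, and 3 members passed only in an alternative (Col4a1, Col4a2 and Itga7). Leaving out 1 array gave 7 to 13 members higher and 1 to 2 lower, 2 to 3 laminins higher, 2 to 4 collagen IV genes higher, 0 to 3 other matrix members higher and 0 to 1 integrins lower. It gave 1 to 4 linkers higher and 0 to 1 lower, 1 to 2 receptors higher, 3 to 6 adhesion complex genes higher and 3 to 4 lower, and 0 to 1 leucocyte and other integrins higher and 0 to 2 lower. Of all genes 6.79% to 17.5% were called with 1 array left out, beside 16.2% with all arrays.

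Leaving out dim probe sets removed Col4a4, Col4a3, Itga2, Itga5 and Itgb6, so that 0 members and 0 collagen IV genes were lower; 12 members, 3 of them collagen IV genes with Col4a1 gained, and 2 receptors were higher. Averaged probe sets also gave 0 members and 0 collagen IV genes lower. Without probe sets ending in _s, _x or _a, which drops the sets shown for the called members Lama3, Lamb3, Itgb4 and Col17a1, 7 members and 1 laminin were higher and 3 adhesion genes lower. With the muscle covariate 2 members and 1 integrin were lower, 1 other matrix member was higher, 3 adhesion genes were higher and 3 lower, and 1 leucocyte or other integrin was lower. The replicate block gave 12 members higher with Col4a1 gained (0.46, adjusted p = 0.0424), 5 linkers higher and 2 lower, 2 receptors higher, 3 adhesion genes lower and 1 leucocyte or other integrin lower. The labels do not say that numbers pair the samples: deviations of same-numbered samples correlated at −0.05, 0.19 and −0.02, and 2 of 6 samples correlated best with their own number. Causes were not tested. Cyclic loess, median centring and the other variance prior moved no count by over 1.5 times. Over all genes the share called was 26.3% with dim probe sets left out and 16.9% with averaged probe sets. It was 14.7% without _s, _x or _a sets, 12.5% with the muscle covariate and 15.8% with the replicate block. The limits are 3 arrays a group and the dim signals of Col4a3, Col4a4, Itga2, Itga5 and Itgb6, whose probe sets lie below the median.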

Other observations

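Within the marker lists a few genes went against the rest. Sox10, a transcription factor of Schwann cells that mammary epithelium also expresses, rose by 1.68 (adjusted p = 0.000752), while the other 4 Schwann cell genes measured had differences of −0.67 to −0.03. Cldn5, the claudin of endothelial tight junctions, rose by 0.97 (adjusted p = 0.0144), while Kdr and Tek, endothelial receptors, fell by 0.49 and 0.45 (adjusted p = 0.0237 and 0.0242). These genes were singled out after their values were seen, and no explanation was tested.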
